A study of Mus musculus with 6 samples.

Results

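The 42 genes described here act in the NRF2 response, in glutathione and thioredoxin metabolism, in iron handling and in ferroptosis. They were chosen by name from these pathways, and all 42 were among the 27998 genes of the deposited table. The cells were dissociated from dorsal root ganglia, which hold the cell bodies of sensory neurons, of 6 mice, each with 1 droplet library of 3' RNA tags. Mice 654 (female) and 657 (male) were labelled Ttpa-/- with a vitamin E deficient diet, mice 670 (male) and 671 (female) were labelled Ttpa-/- with vitamin E supplementation, and mice 698 (female) and 699 (male) were labelled Ttpa+/+ on a basal diet. The Ttpa-/- mice were 6 months old and the wild type mice 5 months old, so age, diet and genotype cannot be told apart between Ttpa-/- and wild type. Ttpa encodes the alpha-tocopherol transfer protein, by which the liver keeps vitamin E in the circulation. All samples were labelled as neurons of the ganglia, and how many ganglia or which levels were used is not stated. Nothing in the labels says whether the mice were littermates, and with 2 mice a group the p-values measure only the spread between these animals.

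Vitamin E is a lipid-soluble antioxidant that stops chain reactions of lipid peroxidation in membranes. Ferroptosis is a form of cell death in which iron drives the peroxidation of polyunsaturated phospholipids, and it is held back by glutathione-dependent repair of lipid peroxides and by vitamin E itself. NRF2, encoded by Nfe2l2, is the transcription factor that raises many genes of glutathione and thioredoxin metabolism when its inhibitor Keap1 is modified by electrophiles. It binds the antioxidant response element with small Maf proteins. Large and small sensory neurons differ in axon length, myelination and oxidative load, and vitamin E deficiency in humans and mice leads to a sensory ataxia.

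The core of the antioxidant response element, TGACNNNGC on either strand, was looked for in RefSeq promoter windows of the mouse build GRCm38.p6. These run from 250 bases before to 50 bases after an annotated transcript start, which can lie inside the gene. Of the 42 genes, 34 had a window in that table, and 10 of them (29.4%) held the core in at least 1 window, against 3781 of all 27025 genes (14.0%). By window, 46 belonged to these genes and 10 held the core (21.7%), against 12.4% of all 32851 windows. The 10 matches are printed in the direction of transcription, with the 9 bases of the core in capitals and 10 bases on either side, because they show which members carry the element within this window. A core on the opposite strand reads GCNNNGTCA.

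Nfe2l2 (chr2:75704885-75704913, - strand): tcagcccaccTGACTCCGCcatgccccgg
Srxn1 (chr2:152105542-152105570, + strand): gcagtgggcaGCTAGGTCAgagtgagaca
Gstm5 (chr3:107895802-107895830, + strand): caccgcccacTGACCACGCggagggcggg
Gclm (chr3:122245413-122245441, + strand): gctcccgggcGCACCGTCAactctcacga
Mgst1 (chr6:138140461-138140489, + strand): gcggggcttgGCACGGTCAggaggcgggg
Me1 (chr9:86695902-86695930, - strand): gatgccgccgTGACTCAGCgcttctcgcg
Txnrd1 (chr10:82859104-82859132, + strand): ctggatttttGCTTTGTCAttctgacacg
Ncoa4 (chr14:32165735-32165763, + strand): aggcggggcgTGACCTGGCcggtagggta
Sod1 (chr16:90220696-90220724, + strand): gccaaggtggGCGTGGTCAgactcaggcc
G6pdx (chrX:74428919-74428947, - strand): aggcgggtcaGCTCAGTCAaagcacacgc

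In 9 of these 10 genes the core began before the start site of its window, from base -240 in Nfe2l2 to base -6 in Me1. For Txnrd1 and Ncoa4 that start lies within the gene, which begins at chr10:82833951 and chr14:32159879. Their cores are thus not upstream of the whole gene. In Srxn1 it lay after the start, at base 29. The match is a description of the letters, and 8 members (Gclc, Fads1, Gsta4, Hmox1, Gsr, Aldh2, Sod3 and Slc40a1) had no window in the table.

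The libraries held 12538785 to 19383933 UMIs (unique molecular identifiers, 1 per captured RNA molecule), with a median of 2499.5 to 4959 UMIs per cell. After filters, 21024 of 21685 cells were kept, and 261 of 21424 distinct barcodes occurred in more than 1 library, each kept as a cell of its own mouse. Clustering, from which the 42 members were left out, gave 22 clusters, and 2779 to 3899 cells per mouse fell in neuronal ones. Markers named 4 neuron classes of several clusters (PEP-like peptidergic nociceptors, NP1-like Mrgprd nociceptors, TH-like C-fibre mechanoreceptors and NF-like large myelinated neurons), and NP3-like (Sst and Nppb) itch neurons in 1. A further 4 neuronal clusters were called by their leading gene: Mrgpra3-led, Mlc1-led, Dcn-led and Foxp2-led. Satellite glia formed no cluster of their own among these 22. All 10 of their markers were detected among neurons. These summed to 435 to 881 CPM (counts of UMIs scaled to an equal total in every library and class). In a finer clustering (Leiden resolution 2), clusters of 536 and 519 cells were named satellite-glia-like. Mice 670 and 671 had 175 and 109 cells in the first and 115 and 155 in the second. The other mice had 27 to 96 and 46 to 82. In the clustering used below such cells were not set apart, and their part in the levels was not tested. In neurons the 9 macrophage markers summed to 3.05 to 11.0 CPM and the 5 erythroid markers to 8.55 to 225 CPM, none of them at 0 in all mice; their part in the results was not tested. Ttpa had 4, 5, 1 and 3 UMIs in the neurons of mice 654, 657, 670 and 671 and 0 in those of mice 698 and 699. The libraries labelled Ttpa-/- thus held more Ttpa tags than those labelled Ttpa+/+. No source says which stretch of the gene is missing, so these tags check nothing, and mice are called by their labelled genotype.

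Levels are given as CPM of a class in a mouse, with the mean and SD over 6 mice. A 3' tag counts a molecule once, so CPM is not divided by gene length, and levels are compared within a gene. Members differed widely between neuron classes. Of the 42 genes, 29 reached a mean of 20 CPM in at least 1 of the 9 neuron classes, and in 26 of these 29 the highest class was at least 2 times the lowest. Among all 7993 genes that reached 20 CPM, 84.1% did so, so the share of members is near that of genes in general. In 4 of the 29 (Txn1, Hmox1, Gclm and Elovl5) every mouse's value in the highest class lay above every mouse's value in all other classes, against 14.0% of all genes that reached 20 CPM. The levels by class are a description, with no test.

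**Figure D1:**
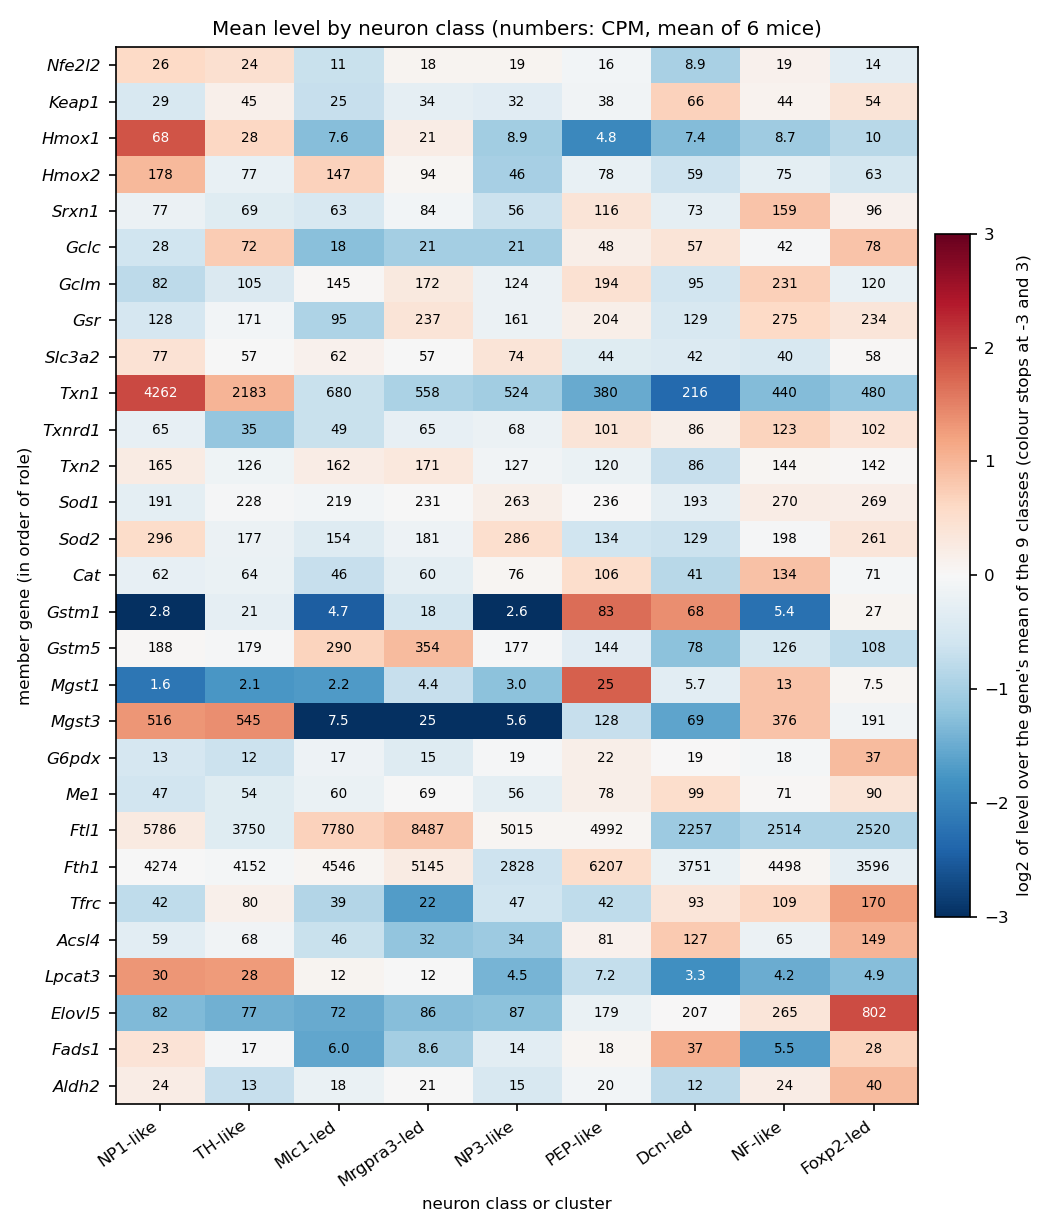
Each row is 1 of the 29 members that reached 20 CPM and each column a neuron class or cluster, the number is the mean CPM of 6 mice, and the colour is the log2 of that level over the gene's own mean across the 9 classes. Txn1 stands out at 4262 CPM in NP1-like neurons, and Mgst3 runs from 545 CPM in TH-like to 5.61 CPM in NP3-like neurons.

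NRF2 and its inhibitor were detected at low levels in every class. Nfe2l2 averaged 26.3 CPM in NP1-like neurons (SD 2.89, n = 6, from 23.4 through a median of 25.7 to 30.8) and 24.5 CPM in TH-like neurons (SD 1.69, n = 6). It was lowest in the Dcn-led cluster at 8.85 CPM, where mice ranged from 0 to 26.2 CPM. Keap1, the adaptor that marks NRF2 for degradation, had another order. Its level was 65.6 CPM in the Dcn-led cluster (SD 23.7, n = 6), 29.1 CPM in NP1-like (SD 4.10) and 25.2 CPM in Mlc1-led neurons (SD 6.96). The Dcn-led and Foxp2-led clusters had only 40 to 101 and 19 to 71 cells per mouse, and their mice overlapped with several other classes in both genes.

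Haem oxygenase 1 (Hmox1), the inducible enzyme that breaks haem down to biliverdin, iron and carbon monoxide, was highest in NP1-like neurons. In these it ranged from 62.5 through a median of 64.6 to 82.4 CPM over 6 mice. TH-like neurons followed with 28.1 CPM (SD 3.55) and the Mrgpra3-led cluster with 21.2 CPM (SD 3.90) (15.5 to 25.3), whose upper values overlapped with the lowest of TH-like neurons (24.5). All other classes averaged 4.80 to 10.3 CPM, and no mouse in any of them reached the NP1-like range. Within the NP1-like class, the 2 clusters led by Lpar3 had 72.1 and 68.2 CPM and the one led by Cyp26b1 had 39.2 CPM. Its constitutive counterpart Hmox2 was also highest in NP1-like neurons (178 CPM, SD 9.25), but with the Mlc1-led cluster close behind at 147 CPM (SD 20.7) and overlapping ranges, 165 to 187 against 118 to 176 CPM. The lowest class for Hmox2 was NP3-like at 45.5 CPM (SD 8.87).

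The 2 reductases of this group had a different order. Sulfiredoxin (Srxn1), which repairs over-oxidised peroxiredoxins, was highest in NF-like neurons at 159 CPM (SD 17.1, 138 to 183), with PEP-like next at 116 CPM (SD 13.1, 98.4 to 129) and NP3-like lowest at 56.4 CPM (SD 8.61). Apart from the Foxp2-led cluster, whose highest mouse reached 142 CPM, no other class overlapped with the NF-like range. Nqo1, a quinone reductase often read as a sign of NRF2 activity, stayed below the 20 CPM limit. Its class means ran from 1.84 CPM in the Dcn-led to 14.8 CPM in the Foxp2-led cluster, the latter with mice from 0 to 53.8 CPM.

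Glutathione is made in 2 steps, by glutamate-cysteine ligase (catalytic subunit Gclc, modifier subunit Gclm) and glutathione synthetase (Gss), and is regenerated by glutathione reductase (Gsr). Gclm was highest in NF-like neurons, with a lowest mouse of 221, a median of 224 and a highest of 253 CPM. PEP-like neurons followed at 194 CPM (SD 14.5, 175 to 210), and the 2 ranges did not overlap. NP1-like neurons had the lowest mean, 82.3 CPM (SD 5.16, 75.3 to 87.7). Gsr was also highest in NF-like neurons (275 CPM, SD 18.9), with overlap from the Mrgpra3-led (237 CPM, SD 12.9) and Foxp2-led clusters (234 CPM, SD 95.2), and lowest in the Mlc1-led cluster (94.9 CPM, SD 15.5).

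The catalytic subunit did not follow the modifier. Gclc averaged 78.2 CPM in the Foxp2-led cluster (SD 24.9) and 72.5 CPM in TH-like neurons (SD 8.27, 60.4 to 82.9), and 17.9 CPM in the Mlc1-led cluster (SD 6.49). Its values in NP1-like (28.3 CPM), NP3-like (21.2 CPM) and Mrgpra3-led neurons (21.1 CPM) lay below every TH-like mouse. Across the 9 class means, the log2 levels of Gclc and Gclm had a Pearson r of -0.16 and a Spearman rho of -0.32, as a description of 9 points that share the same 6 libraries. Gss stayed between 6.53 and 11.9 CPM in all classes.

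Cystine for glutathione enters through the antiporter made of Slc7a11 and its heavy chain Slc3a2. Slc7a11, itself a known NRF2 target, was almost unseen in these neurons, with 3, 4, 5, 5, 5 and 8 UMIs in mice 654, 657, 670, 671, 698 and 699, in that order. The highest value in any class and mouse was 1.503 CPM, in NF-like neurons, and 3 classes had no UMI at all, which allows up to 0.692 CPM in the Mlc1-led and up to 4.69 CPM in the Foxp2-led cluster. Slc3a2, which also pairs with other amino acid transporters, was present throughout at 40.5 CPM (NF-like) to 76.8 CPM (NP1-like).

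Thioredoxin 1 (Txn1, RefSeq gene at chr4:57943373-57956411), the cytosolic disulfide reductase, gave the widest contrast between abundant levels. NP1-like neurons ranged from 3805 through a median of 4150 to 4742 CPM, and TH-like neurons from 1723 through 2160 to 2940 CPM. Every other class averaged 216 to 680 CPM, so that NP1-like neurons were 19.7 times the Dcn-led cluster. The TH-like mean hid a split. The Ceacam10-led cluster, which also expressed Th, had 3246 CPM (3012 to 3764), whereas the clusters led by Slc17a8 and Spry2 had 759 CPM (653 to 895) and 709 CPM (472 to 849). Median UMIs per cell differ between classes, with 5998 in NP1-like, 3749 in TH-like and 2487.5 in PEP-like neurons. The Mlc1-led cluster, where Txn1 was at 680 CPM, had 6635. The part of depth in the Txn1 levels was not tested.

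Thioredoxin reductase 1 (Txnrd1), which keeps thioredoxin reduced, was lowest in TH-like neurons. They had 34.6 CPM (SD 5.47, 29.0 to 41.7) and NF-like neurons 123 CPM (SD 8.66, 114 to 138), and these 2 ranges did not overlap. NP1-like neurons, at 65.2 CPM (SD 9.67), lay among the Mrgpra3-led (64.7 CPM) and NP3-like neurons (67.9 CPM). Over the 9 class means the log2 levels of Txn1 and Txnrd1 had a Pearson r of -0.60 and a Spearman rho of -0.75. The mitochondrial Txn2 varied little, from 85.6 to 171 CPM.

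Superoxide dismutases, which turn superoxide to hydrogen peroxide, varied less than most members. Sod1, the cytosolic enzyme, ran from 191 CPM in NP1-like to 270 CPM in NF-like neurons. Sod2, the mitochondrial enzyme, was highest in NP1-like (296 CPM, SD 21.6) and NP3-like neurons (286 CPM, SD 20.9), whose ranges overlapped, and was 134 CPM in PEP-like neurons (SD 6.39, 125 to 143). The secreted Sod3 did not pass 1.92 CPM in any class mean. Catalase (Cat), which removes hydrogen peroxide, had 134 CPM in NF-like (SD 20.1) and 106 CPM in PEP-like neurons (SD 5.54), with overlapping ranges, and 41.3 CPM in the Dcn-led cluster (SD 17.8).

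Of the 6 glutathione transferases, 4 reached 20 CPM in a class and none stood apart from all other classes. Mgst3, a membrane-bound transferase and peroxidase, was highest in TH-like neurons, from 387 through a median of 558 to 700 CPM, with overlapping ranges in NP1-like (516 CPM, SD 47.3) and NF-like neurons (376 CPM, SD 45.9). It was low in the itch neurons, with 5.61 CPM in NP3-like (1.97 to 8.83) and 24.6 CPM in the Mrgpra3-led cluster (11.8 to 32.3), and in the Mlc1-led cluster (0 to 13.6 CPM). The ratio of TH-like to NP3-like was 97.3, and 34.8 with the cells called as doublets kept. Here too the Ceacam10-led TH-like cluster (840 CPM) stood above its 2 companions (144 and 133 CPM), and among NF-like clusters the Ntrk2-expressing one led by Cadps2 had 63.1 CPM (59.4 to 72.6) while those led by Pvalb, Calb1 and Ptgfr had 559, 321 and 656 CPM.

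Gstm1 and Mgst1 were highest in peptidergic neurons. Gstm1, a cytosolic mu-class transferase, had 82.8 CPM in PEP-like neurons (71.2, 86.1 and 87.7 as lowest, median and highest) and 67.8 CPM in the Dcn-led cluster (SD 17.4), against 2.57 to 5.44 CPM in NP3-like, NP1-like, Mlc1-led and NF-like neurons. Mgst1, a microsomal transferase, had 24.9 CPM in PEP-like neurons (SD 3.38, 21.3 to 29.1) and 12.9 CPM in NF-like neurons (SD 3.91), and class means of at most 7.49 CPM elsewhere. Among the 5 PEP-like clusters Mgst1 ran from 5.10 CPM in the one led by Sstr2 to 51.2 CPM in the one led by Fam19a1, where Gstm1 was also highest at 145 CPM. Gstm1 has close relatives in the same gene cluster, and no source states how tags shared between them were counted.

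Gstm5, of the same family, was high in other classes, with 354 CPM in the Mrgpra3-led cluster (SD 37.0, 298 to 403) and 290 CPM in the Mlc1-led cluster (SD 26.9, 245 to 323), which overlapped, and 77.6 CPM in the Dcn-led cluster. Gstp1 class means lay between 5.57 and 16.1 CPM, and Gsta4, which clears lipid aldehydes, between 0.323 and 13.7 CPM. Of the 2 sources of NADPH, the reductant on which both systems run, glucose-6-phosphate dehydrogenase (G6pdx) had 37.3 CPM in the Foxp2-led cluster (SD 7.87, 28.2 to 51.4) and 12.2 to 21.7 CPM elsewhere, and malic enzyme (Me1) had 46.7 CPM in NP1-like neurons to 99.4 CPM in the Dcn-led cluster.

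Iron storage and uptake genes were high in different classes. Ferritin light chain (Ftl1, chr7:45457944-45459886), part of the iron storage shell, was among the most abundant members. It averaged 8487 CPM in the Mrgpra3-led cluster (7679 through 8669 to 9194) and 7780 CPM in the Mlc1-led cluster (6706 through 7863 to 8723), which overlapped. The lowest levels were 2257 CPM in the Dcn-led cluster, 2514 CPM in NF-like neurons and 2520 CPM in the Foxp2-led cluster, and no mouse of these 3 overlapped with the remaining classes. Within NF-like neurons, the Pvalb-led cluster, which holds proprioceptors, had 1171 CPM (1040 to 1464) and the Ptgfr-led cluster 3729 CPM. The heavy chain Fth1, which oxidises iron for storage, varied less, from 2828 CPM in NP3-like (SD 262) to 6207 CPM in PEP-like neurons (SD 650). Both ferritin genes have many processed pseudogenes, and tags shared with them make their levels less certain.

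The transferrin receptor (Tfrc, chr16:32608896-32632794), which brings iron into the cell, was low where Ftl1 was high. It had 22.2 CPM in the Mrgpra3-led cluster (16.9 through 21.8 to 30.8), 109 CPM in NF-like neurons (84.5 through 109 to 137) and 170 CPM in the Foxp2-led cluster (SD 69.1). Over the 9 class means the log2 levels of Ftl1 and Tfrc had a Pearson r of -0.93 and a Spearman rho of -0.88. This pair was chosen after the levels were seen, and the classes share libraries. Within NF-like neurons the order of the clusters was not a mirror image. The Cadps2-led cluster had the most Tfrc (190 CPM, 137 to 286) with 3134 CPM of Ftl1, and the Ptgfr-led cluster had the least (43.3 CPM) with the most Ftl1. The iron exporter ferroportin (Slc40a1) and the ferritin-degradation receptor Ncoa4 were barely detected, with class means of at most 2.92 and 3.65 CPM.

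**Figure D2:**
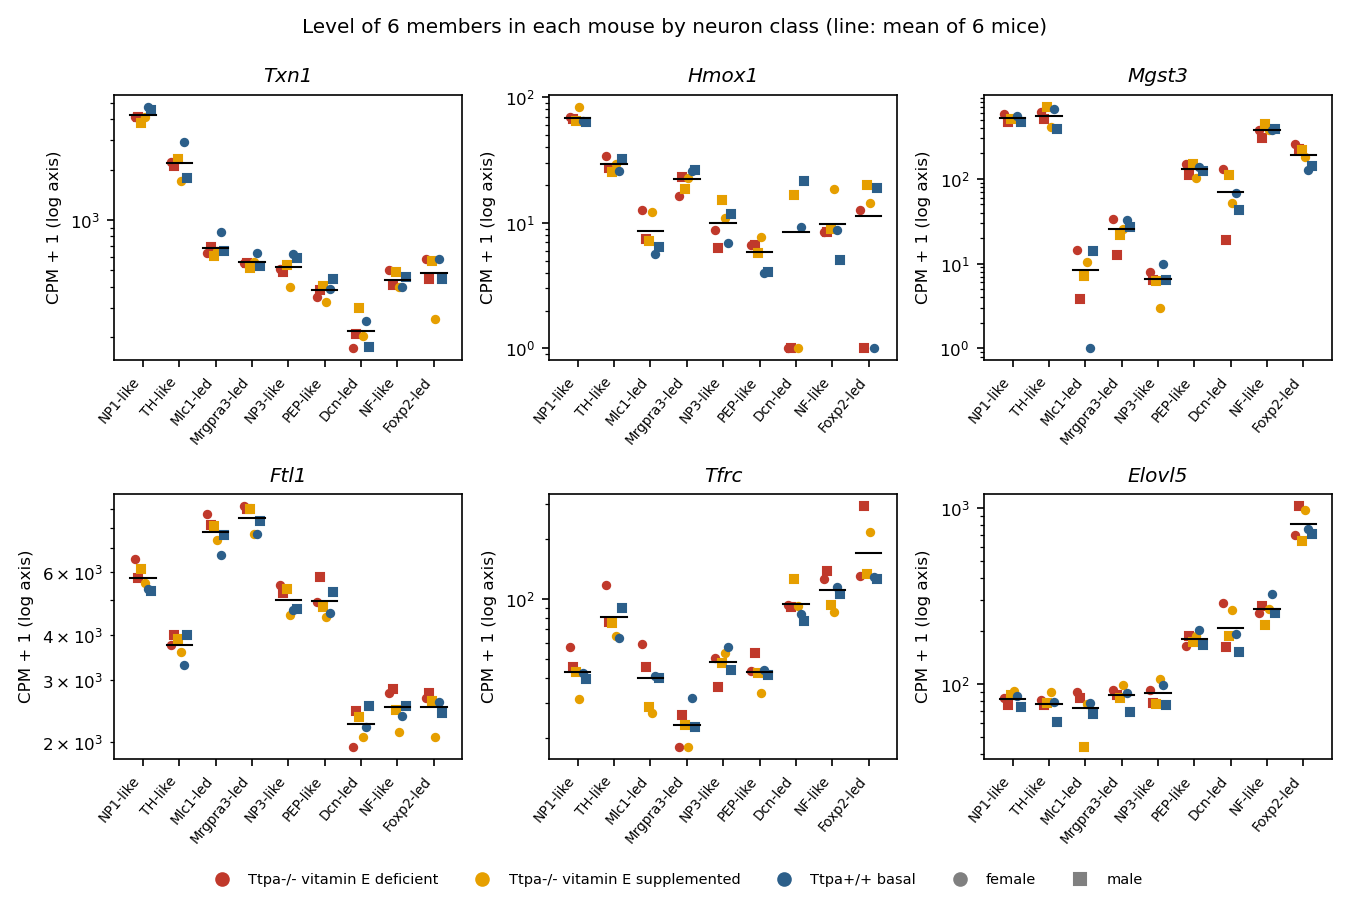
Each panel plots 1 member as CPM plus 1 on a log axis against neuron class, with 1 point per mouse (colour for group, circle for female and square for male) and a line at the mean of 6 mice. The 6 mice of a class lie close together for Txn1 and Ftl1, and from the highest to the lowest class these genes differ more than between groups. Some classes lie close to each other, such as NP3-like and PEP-like neurons for Ftl1 (5015 and 4992 CPM). For Hmox1 the Dcn-led and Foxp2-led clusters, with the fewest cells, scatter most (0 to 20.7 and 0 to 18.8 CPM). For Mgst3 the Mlc1-led cluster does (0 to 13.6 CPM).

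Genes that set the supply of peroxidisable lipids did not share one order of classes. Elovl5, which lengthens polyunsaturated fatty acids, was highest in the Foxp2-led cluster at 649 through 733 to 1020 CPM, 3.03 times the NF-like mean of 265 CPM (216 to 322). Another 6 classes lay between 72.5 and 179 CPM, and the Dcn-led cluster had 207 CPM. In the Pvalb-led NF-like cluster Elovl5 was also high (578 CPM, 457 to 690). Acsl4, the acyl-CoA synthetase that activates arachidonic acid and is needed for ferroptosis in many cells, was highest in the Foxp2-led (149 CPM, SD 27.3) and Dcn-led clusters (127 CPM, SD 48.8) and lowest in Mrgpra3-led (32.5 CPM, SD 4.35) and NP3-like neurons (34.5 CPM, SD 6.21). Lpcat3, which places such acyl chains in phospholipids, instead followed thioredoxin. It had 29.5 CPM in NP1-like (SD 4.23) and 28.5 CPM in TH-like neurons (SD 5.75), which overlapped, and 3.29 to 12.5 CPM elsewhere, so that the 2 enzymes of this step were not high in the same classes (Pearson r -0.33, Spearman rho -0.32 over 9 class means).

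The remaining lipid genes were low. Fads1, a fatty acid desaturase, ranged from 5.45 CPM in NF-like neurons to 37.3 CPM in the Dcn-led cluster, where mice spread from 8.99 to 78.5 CPM. Aldh2, the mitochondrial aldehyde dehydrogenase that clears lipid aldehydes, had 12.1 to 39.8 CPM, and Pla2g6, a phospholipase that can release oxidised acyl chains, 6.56 to 17.7 CPM. Aifm2, the ubiquinone reductase known as ferroptosis suppressor protein 1, did not exceed a class mean of 2.79 CPM, and Elovl2 and Fads2 reached 5.92 and 3.90 CPM. Alox5, a lipoxygenase, had 3 UMIs in all neurons together in the 2 mice where it was seen (2 in mouse 654 and 1 in mouse 698), and in 6 classes none, which allows up to 0.149 CPM in NP1-like neurons and up to 4.07 CPM in the Dcn-led cluster.

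The question of the design is whether loss of Ttpa, with or without added vitamin E, changes these genes in sensory neurons. UMIs were summed over all neurons of each mouse, and 40 of the 42 members passed the low-count filter (Slc7a11 and Alox5 did not). With edgeR's quasi-likelihood test and Benjamini-Hochberg adjustment over 13353 genes, no member passed an adjusted p of 0.05 between deficient and wild type, supplemented and wild type, deficient and supplemented, or both Ttpa-/- diets and wild type. No gene of any kind was called in these contrasts, so the background is 0% of genes in each. At an unadjusted p under 0.05, the members numbered 3, 1, 2 and 2 of 40 in these 4 contrasts, and all genes 517, 513, 344 and 587 of 13353. With DESeq2, 2, 13, 2 and 10 genes were called and no member.

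Differences were small in both directions. Members were higher in 18, 17, 23 and 19 of 40 cases, with median log2 fold changes of -0.02, -0.03, 0.03 and -0.02, against -0.01, -0.01, -0.00 and -0.01 over all genes. The contrasts share mice, so these counts are not independent. The 95% interval of the fold change lay within 2-fold for 35, 35, 36 and 36 of the 40 members, and within 1.5-fold for 26, 29, 29 and 29. The members whose interval reached past 2-fold in deficient or supplemented against wild type were Slc40a1, Sod3, Aifm2, Elovl2 and Fads2, all at low levels. NRF2 itself differed by 0.07 (SE 0.14) on the log2 scale between deficient and wild type.

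**Figure D3:**
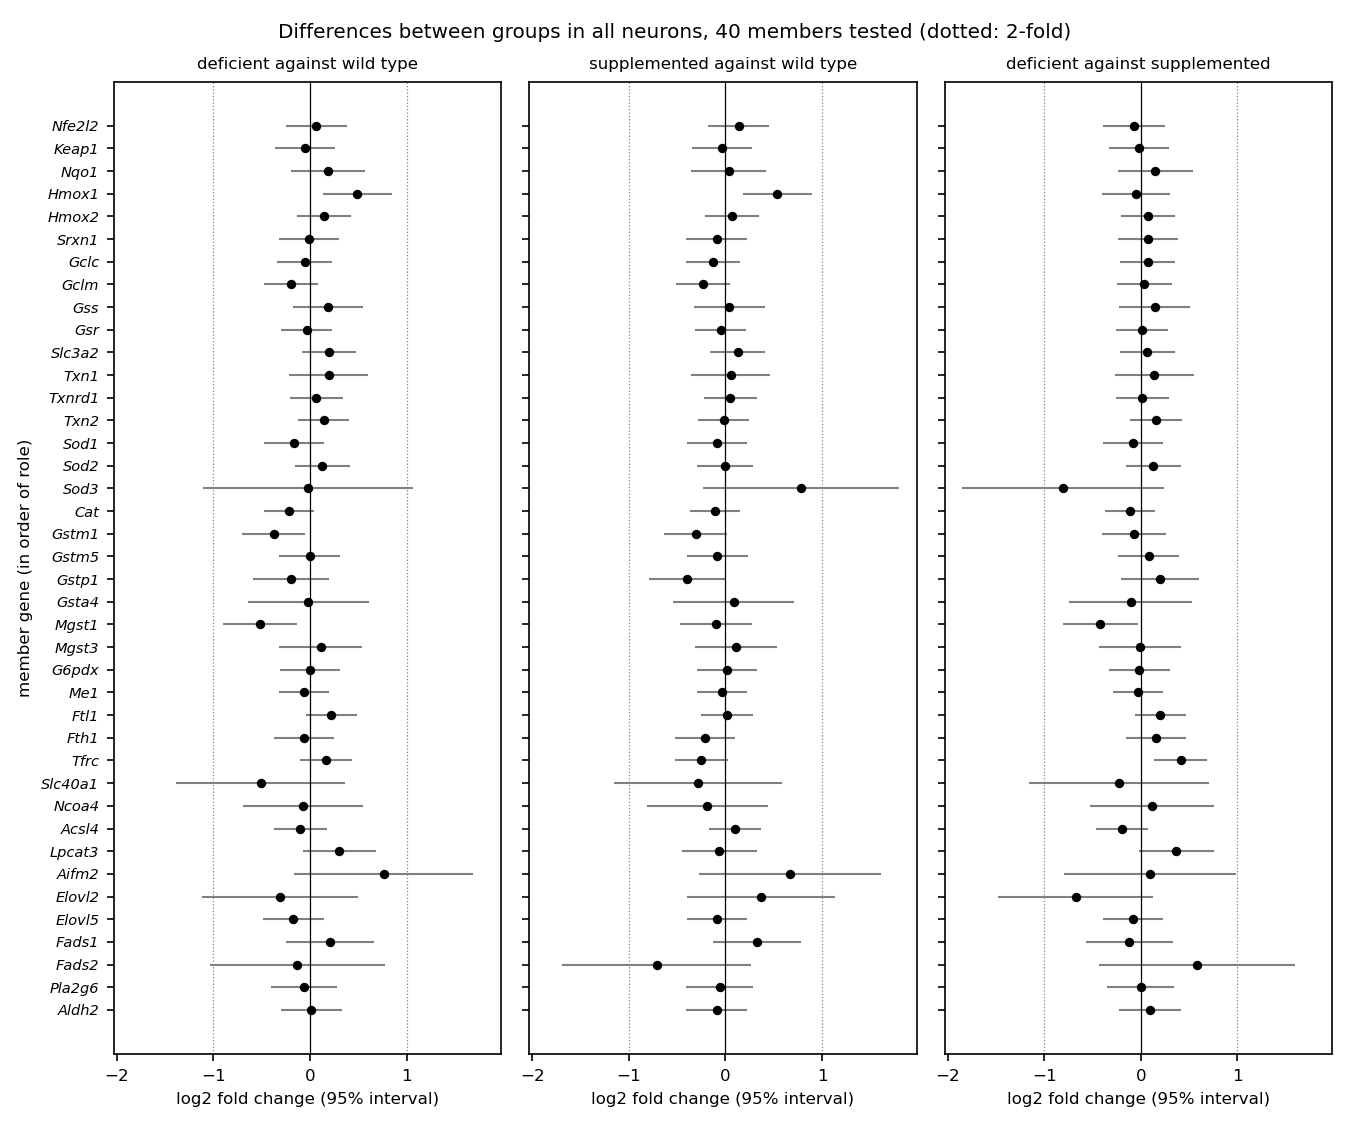
Each row is 1 of the 40 members tested in all neurons and each panel a contrast, with the point at the log2 fold change of edgeR and the bar its 95% interval over 6 mice. Most bars stay inside the dotted lines at 2-fold, and the wide ones belong to members at 0.566 to 2.34 CPM in all mice, namely Sod3, Slc40a1, Aifm2, Elovl2 and Fads2.

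Hmox1 had the smallest p of the members in both Ttpa-/- groups against wild type. Its level over all neurons was 30.8 and 23.7 CPM in the deficient mice 654 and 657, 27.2 and 29.8 CPM in the supplemented mice 670 and 671, and 21.1 and 17.3 CPM in the wild type mice 698 and 699. All 4 mice labelled Ttpa-/- lay above both wild type mice. How many of all genes separate groups or sexes without overlap was not counted. Such separations, here and below, thus have no background beside them. The log2 fold change was 0.49 (SE 0.16) for deficient, 0.54 (SE 0.16) for supplemented and 0.51 (SE 0.14) for both diets against wild type, with an adjusted p of 0.993, 0.875 and 0.995 in edgeR. NP1-like cells, the class richest in Hmox1, made up 20.2%, 13.3%, 19.5% and 14.4% of neurons in these 4 mice and 11.0% and 8.08% in the wild type mice. With the same number of cells of each class drawn from every mouse, the log2 fold change of both diets against wild type fell to 0.15 (SE 0.13), and the settings tried ranged from 0.15 to 0.66 with a smallest adjusted p of 0.0590.

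Within classes Hmox1 went in different directions. Against wild type, both diets together differed by 0.12 (SE 0.13) in NP1-like, -0.05 (SE 0.18) in TH-like, -0.37 (SE 0.27) in Mrgpra3-led, 0.87 (SE 0.33) in PEP-like and 0.87 (SE 0.37) in NF-like neurons on the log2 scale, none past the threshold. In PEP-like neurons the 4 mice labelled Ttpa-/- had 5.59, 5.67, 4.74 and 6.76 CPM (14 to 30 UMIs) and the wild type mice 2.99 and 3.06 (14 and 18 UMIs), without overlap but at a low level. In NF-like neurons mouse 671 alone had 17.5 CPM, and the other 5 had 4.06 to 7.98. Whether the Ttpa-/- effect differed between the 8 neuron classes was tested with mouse as a block: 8 of 11591 genes were called (0.0690%) and no member of 35 tested, with an unadjusted p of 0.0040 for Hmox1 (adjusted p 1 in edgeR).

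Mgst1 and Gstm1 were the members with the smallest p among those lower in deficient mice. Mgst1 had 7.58 and 8.14 CPM in the deficient, 9.37 and 12.0 CPM in the supplemented and 11.1 and 11.2 CPM in the wild type mice. Both deficient mice lay below the other 4. Its log2 fold change was -0.52 (SE 0.17, adjusted p 0.993 in edgeR) against wild type and -0.42 (SE 0.18, adjusted p 0.9998) against supplemented mice. Gstm1 had 24.3 and 28.1 CPM in the deficient, 31.0 and 25.2 CPM in the supplemented and 33.4 and 34.2 CPM in the wild type mice, and both wild type mice lay above all others (deficient against wild type -0.38, SE 0.15, adjusted p 0.993 in edgeR, and both diets against wild type -0.34, SE 0.13).

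PEP-like neurons, the class richest in both genes, made up 29.5%, 34.9%, 34.1% and 35.6% of neurons in mice 654, 657, 670 and 671 and 39.7% and 37.1% in mice 698 and 699. With the class mix matched, the Mgst1 difference between deficient and wild type was -0.22 (SE 0.17) and the Gstm1 difference of both diets was -0.10 (SE 0.13). In PEP-like neurons themselves, Mgst1 had 21.3 and 21.4 CPM in the deficient, 24.4 and 29.1 CPM in the supplemented and 28.7 and 24.7 CPM in the wild type mice, with both deficient mice lowest (-0.35, SE 0.19, against wild type, adjusted p 0.9999 in edgeR). In NF-like neurons, the only other class tested, the Mgst1 difference was -0.02 (SE 0.32). In PEP-like neurons Gstm1 had 85.0, 78.1, 87.3 and 71.2 CPM in mice 654, 657, 670 and 671 and 87.5 and 87.7 CPM in mice 698 and 699.

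**Figure D4:**
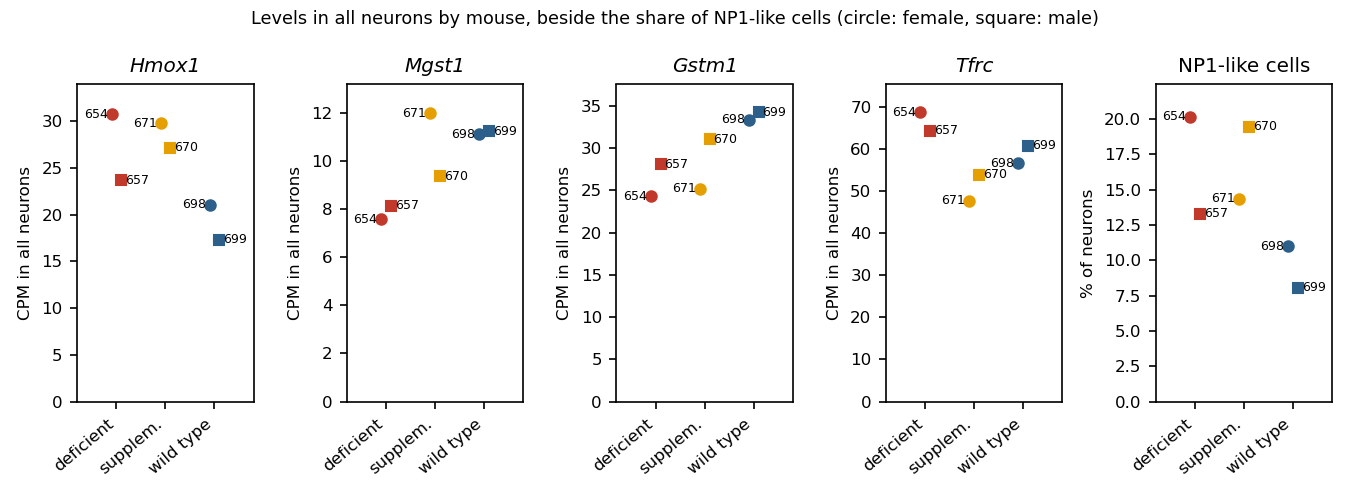
The first 4 panels plot the CPM of Hmox1, Mgst1, Gstm1 and Tfrc in all neurons of each mouse by group, and the last panel the share of neurons in NP1-like clusters (circles are females, squares males, numbers name the mice). Hmox1 and the NP1-like share are both lowest in the 2 wild type mice, and Tfrc is highest in the 2 deficient and lowest in the 2 supplemented mice.

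Tfrc had the smallest p between the 2 diets. The deficient mice had 68.6 and 64.3 CPM, the supplemented mice 53.8 and 47.7 CPM and the wild type mice 56.6 and 60.7 CPM. The groups did not overlap and wild type lay between them, but the share of all genes with such a separation was not counted. The log2 fold change of deficient over supplemented mice was 0.42 (SE 0.13, 95% interval 0.14 to 0.69, adjusted p 0.9998 in edgeR). It was 0.34 to 0.49 over the 16 settings run in all neurons, which leave out Leiden resolution 2. With the class mix matched it was 0.37 (SE 0.12). The 10 satellite glia markers summed to 500 and 443 CPM in the neurons of the deficient, 634 and 881 CPM in those of the supplemented and 551 and 435 CPM in those of the wild type mice, so they were highest in the 2 mice where Tfrc was lowest. The same 2 mice were highest in NP1-like neurons (377 and 454 CPM against 232 to 275 CPM), while in NF-like neurons they had 378 and 586 CPM against 345 to 410 CPM in the others. The part of these markers in the Tfrc difference was not tested. By class the log2 difference was 0.90 (SE 0.33) in Mlc1-led, 0.57 (SE 0.16) in NF-like, 0.48 (SE 0.17) in NP1-like, 0.45 (SE 0.21) in TH-like, 0.40 (SE 0.18) in PEP-like, 0.20 (SE 0.36) in Mrgpra3-led and -0.23 (SE 0.25) in NP3-like neurons. In 6 of the 7 classes tested Tfrc was thus higher in deficient mice, with an unadjusted p under 0.05 in 5 and an adjusted p of at least 0.932 in all, and these classes come from the same 4 mice. In NF-like neurons the deficient mice had 124 and 137 CPM and the supplemented mice 92.5 and 84.5 CPM, and in NP1-like neurons 56.0 and 44.4 against 41.6 and 30.2 CPM.

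Among ferritin and glutathione synthesis genes, Ftl1 had 5403 and 5379 CPM in deficient, 5065 and 4474 CPM in supplemented and 4466 and 4719 CPM in wild type mice, with both deficient mice above the rest (0.22, SE 0.12, against wild type, and 0.12 with the class mix matched). Fth1 was lower in both diets together than in wild type in 8 of 8 classes, by log2 values of -0.20 to -0.06, and higher in deficient than supplemented mice in 8 of 8, by 0.06 to 0.23, none with an unadjusted p under 0.05. Gclm was likewise lower in both diets together in 8 of 8 classes (-0.42 to -0.05), and in all neurons by -0.21 (SE 0.11). The classes share mice, so the 8 values are not separate observations.

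Aifm2 had a larger fold, 0.76 (SE 0.42) between deficient and wild type, but rests on 15 and 24 UMIs in the deficient mice and 10 and 16 UMIs in the wild type mice. Lpcat3 was 0.37 (SE 0.18) higher in deficient than supplemented mice, with 18.9 and 17.2 against 16.1 and 12.5 CPM. Cat had 78.7 and 77.8 CPM in deficient and 94.5 and 86.1 CPM in wild type mice (-0.22, SE 0.12), and Gstp1 9.20 and 12.9 CPM in supplemented and 13.7 and 14.8 CPM in wild type mice (-0.39, SE 0.18). Fads1 differed by 0.32 (SE 0.21) and Sod3 by 0.78 (SE 0.46) between supplemented and wild type mice, and Elovl2 by -0.68 (SE 0.37) and Sod3 by -0.80 (SE 0.48) between deficient and supplemented mice. None of these passed the threshold in edgeR, the smallest adjusted p being 0.993.

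By role, members leaned in small steps, with 2 or fewer at an unadjusted p under 0.05 in any set. Among 6 glutathione transferases 1 was higher in deficient than wild type mice (median -0.11), and among 4 superoxide dismutases and catalase 1 was higher (median -0.09). All 3 thioredoxin genes were higher (median 0.14), as were 3 of 4 genes of the reductase and haem group (median 0.16). Of all genes 48.0% were higher in this contrast. These values are over all neurons, and the shares of classes differ between mice. Within classes Txn1 was higher in 1 of 8. With the class mix matched, Hmox1 went from 0.49 to 0.09, Mgst1 from -0.52 to -0.22 and Gstm1 from -0.38 to -0.12. The cause of these leans was not tested. All 5 tested genes of glutathione synthesis, recycling and uptake were higher in deficient than supplemented mice, by a median of 0.07, where 49.1% of all genes were higher. Over all genes the median in these 2 contrasts was -0.01 and -0.00.

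In the separate classes, 231 tests of members against 66111 of all genes were made in each contrast, and no member was called. The calls among all genes were 14 between deficient and wild type (0.0212% of tests), 26 between supplemented and wild type (0.0393%), 3 between deficient and supplemented (0.00454%) and 30 between both diets and wild type (0.0454%). Members with an unadjusted p under 0.05 numbered 3, 8, 11 and 5 of 231 tests (1.30%, 3.46%, 4.76% and 2.16%), against 2.86%, 4.27%, 3.40% and 3.61% of the tests of all genes, a smaller share in 3 contrasts and a larger one between deficient and supplemented mice, which was not tested. Of the 11 tests between deficient and supplemented mice, 5 were of Tfrc and 2 of Acsl4, in classes of the same mice. Against wild type, Txn1 was among the members with an unadjusted p under 0.05 in the class where it is most abundant. In NP1-like neurons it had 4142 and 4157 CPM in deficient, 3805 and 4140 CPM in supplemented and 4742 and 4584 CPM in wild type mice, and both wild type mice lay above all 4 others. The log2 difference of both diets from wild type was -0.23 (SE 0.08, adjusted p 0.689 in edgeR), and in NP3-like neurons -0.38 (SE 0.15, adjusted p 0.9998). Over all neurons, where the NP1-like share is larger in the mice labelled Ttpa-/-, it was 0.12 (SE 0.16). The cause of this change of sign was not tested.

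Acsl4 was lower in deficient than supplemented mice in 7 of 8 classes, by -0.41 (SE 0.14) in NP1-like and -0.69 (SE 0.29) in Mlc1-led neurons, again not past the threshold (adjusted p of 0.932 and 0.9996 in edgeR). Of 129 further genes of the same pathways in the table, 114 were tested in all neurons and none was called in any of these 4 contrasts. Over the 8 classes 687 tests of these genes gave no call in any contrast.

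Females and males were compared over the 3 groups, each with 1 of either sex. Of all genes 9 were called (0.0674%) and no member, with 1 of 40 at an unadjusted p under 0.05. That member was Srxn1, with 90.0, 86.6 and 87.3 CPM in the females 654, 671 and 698 and 104, 101 and 107 CPM in the males 657, 670 and 699, which did not overlap (-0.25, SE 0.11, adjusted p 0.9996 in edgeR). Hmox1 was 0.26 (SE 0.13) higher in females and 0.12 (SE 0.13) with the class mix matched. Txn1 differed by 0.18 (SE 0.16) in the main comparison, and by 0.40 with an adjusted p of 0.0323 in edgeR when mouse 670 was left out and of 0.0341 when mouse 671 was left out, settings in which 248 and 242 genes were called. With mouse 698 or 699 left out the sign turned (-0.017 and -0.012).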

How the data were processed

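The members and gene lists were chosen with earlier results of these data known. The authors deposited raw UMI counts per gene and cell in 1 table, and per the submitters' processing notes bcl2fastq 2.17.1.14, Cell Ranger 2.0.1, Seurat 2.3.0, limma 3.32.10 and mm10 were used. No source states how cells were selected. Cells were assigned to mice by the suffix of their name.

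A minimum of 500 genes and a maximum of 20% mitochondrial UMIs per cell removed 27 cells. Scrublet scores per mouse with their automatic threshold marked 45 cells (0.208%), so the highest scores at a rate of 0.8% per 1000 cells were taken instead, which removed 634 (2.93%). Clustering in scanpy used 2000 variable genes without the members, other genes of their pathways, mitochondrial and sex-linked genes, 30 principal components, 15 neighbours and Leiden resolution 1. Clusters were named from the marker list best represented among their 10 leading genes, provided 3 of its markers were raised, and otherwise by their first gene; the naming was decided with the clusters in view. Rebuilt names can differ from the study's. Of 17 marker sets, the 2 Schwann sets and those for NP2, TRPM8, satellite glia, mural, fibroblast, erythroid and proliferating cells named no cluster. This holds for the main clustering. Under the alternatives below, satellite glia named clusters at resolution 2, myelinating Schwann cells with doublets kept and TRPM8 under the stricter filter. Macrophage-like and endothelial-like clusters (1 to 54 and 11 to 23 cells per mouse), in which 11 of 12 pan-neuronal markers were also detected, were not compared.

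Counts were summed per mouse over all neurons (11954844 to 18599799 UMIs) and over those 8 classes that had at least 20 cells in each library, the mouse being the replicate. edgeR 4.0.16 (TMM, filterByExpr, quasi-likelihood F test, R 4.3.3) was fitted to the 6 mice together, with a term for each group and Benjamini-Hochberg adjustment across the genes tested. The biological coefficient of variation was 12.3% in neurons and 9.69% to 15.4% in classes. Members are described in full where called, otherwise up to 3 per direction and contrast with the smallest p, and by class where a mean reached 20 CPM with a 2-fold range. Values of other members, classes or clusters were added after they were seen, as were the test of a Ttpa-/- effect differing between classes and the relations between genes over classes. Limits for a count of 0 are 3 counts over the total and cover counting error only. Promoter windows and positions are RefSeq's for GRCm38.p6, the build mm10.

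For deficient against wild type the test was tried on simulated counts in all neurons: edgeR called 14 of 50 genes changed 1.5 times, 47 of 50 changed 2 times, all 50 changed 4 or 8 times, and 6 of 13000 unchanged genes. The changed genes were drawn from those with higher counts, and every gene was given the same dispersion. Recovery for members at low counts was thus not tried. The alternatives tried were DESeq2 1.42.0, limma-voom 3.58.1, RLE scaling, testing without a low-count filter, sex as a term, doublets kept, a stricter filter (1000 genes, 10% mitochondrial), thinned sums, matched class mix, Leiden resolution 2 and leaving out each mouse. The matched class mix was run in all neurons only, on cells drawn at random, and the draw was not repeated. Leiden resolution 2 was run by class and not in all neurons.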

Additional observations from a re-analysis of the deposited data

How the results depend on the processing

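No paired analysis was possible because mouse numbers are not shared between groups. The count of members called was 0 in all neurons and over the classes in each of the 4 contrasts between groups, under every alternative run. Between females and males it was 0, and 1 (Txn1) without mouse 670 and 1 without mouse 671, a range of 0 to 1 when mice were left out. The Txn1 difference between the sexes ranged from -0.017 (without mouse 698) to 0.40 (without mouse 670) and was -0.012 without mouse 699, and no other named member changed direction. The Mgst3 ratio of TH-like to NP3-like neurons moved from 97.3 to 34.8 with doublets kept, and the Ftl1 ratio of Mrgpra3-led to Dcn-led from 3.76 to 3.24 under the stricter filter. Ratios with the Dcn-led cluster were not formed with doublets kept, because the cluster led by Dcn was then named myelinating Schwann-like. Nor were those with the Foxp2-led cluster under the stricter filter, where the cluster led by Foxp2 was named TRPM8-like. The number of members with a 2-fold range between classes was 26, and 25 to 29 under the alternatives. Without the low-count filter edgeR called 82, 123, 27 and 99 genes in the 4 contrasts between groups where it otherwise called 0, and DESeq2 2, 13, 2 and 10. With the class mix matched there were 3, 5, 0 and 5, with sex as a term 1, 0, 0 and 3, with a mouse left out 0 to 5, and none was a member. Between the sexes the 9 genes became 30 without the filter, 248 without mouse 670 and 242 without mouse 671. The cause was not tested. Hmox1, Mgst1 and Gstm1 differences between groups in all neurons shrank with the class mix matched, as given above, and the cause was not tested. The Tfrc difference between the diets went from 0.42 to 0.37 and that between supplemented and wild type from -0.25 to -0.20. Members near 1 CPM have intervals past 2-fold, and at 1.5-fold the simulated recovery was 14 of 50, so changes of that size can be missed with 2 mice a group.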
